A study of Homo sapiens with 6 samples.

Results

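Translation initiation factors are the proteins that bring the initiator tRNA, the small ribosomal subunit and an mRNA together. Their genes were examined here in MOLP-8, a cell line grown from a human multiple myeloma, a cancer of plasma cells. The factors were taken as every gene whose deposited symbol starts with EIF and a factor number from 1 to 6. The EIF2AK kinases and names ending in P with digits were left out, which removes pseudogenes but also the eIF4E-binding proteins EIF4EBP1, EIF4EBP2 and EIF4EBP3. This gave 49 genes among 57861 usable genes, chosen by name and not by level. LIN28B KO cells had received a guide RNA against LIN28B, and control cells a scrambled guide. The sample titles abbreviate the LIN28B-targeted group as KD and the condition label as KO, the name used here, and LIN28B mRNA was reduced in it and not absent. Both groups carried the lentiCRISPRv2 vector and had been selected with puromycin, and each had 3 libraries. LIN28B binds let-7 precursors and keeps these microRNAs from maturing. The labels give no clone, guide sequence or separate culture for any library, so the spread behind each p-value is that between libraries and could be technical alone.

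Initiation proceeds in steps that order the factors below. eIF2 carries the initiator tRNA to the small subunit and is recharged with GTP by eIF2B, while eIF1, eIF1A and eIF3 hold the subunit ready. The eIF4 factors bind the mRNA cap and unwind the leader, and eIF5 and eIF5B complete start-codon choice and joining of the large subunit. Plasma cells and myelomas, which secrete immunoglobulin, have a high demand on this machinery. MYC, which binds the E-box CACGTG, is a known activator of several of these genes, EIF4E among them.

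Because the design targets the LIN28B and let-7 axis, the places where let-7 could pair with an initiation factor mRNA are shown first. In the mature let-7a sequence (RefSeq, GRCh38.p14) capitals mark the seed, bases 2 to 8. In the mRNA stretches, read from the longest annotated 3′ UTR of each gene in GENCODE 29, capitals mark the letters complementary to that seed.
hsa-let-7a-5p: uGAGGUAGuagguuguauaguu
EIF3K: taaatagtatcatacCTACCTCatggca
EIF2S2: tggggatggttgctaCTACCTCaccgcc
EIF4E3: tatagaaaatttatgCTACCTCtcatct
EIF4G2: atattgcctgtatttCTACCTCtagtaa
These 4 genes were the tested factors with a match to CTACCTC on the sense strand, 9.09% of 44, against 10.98% of 11311 tested protein-coding genes. The match was thus about as frequent among the factors as among other genes, although their 3′ UTRs were shorter, with a median of 985 against 1369 bases. In EIF3K and EIF2S2 the match is followed by an A. In EIF3K it lies in 1 of 7 annotated coding transcripts, in EIF4E3 in 1 of 4, and in EIF4G2 and EIF2S2 in 4 of 4 and 1 of 1. The deposited values are per gene and do not show which 3′ UTR was used.

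The second set of sequences shows the E-box, in capitals, in the promoters of EIF3K, EIF4A3, EIF4H and EIF4E, a part of the 10 holders. EIF3K, EIF4A3 and EIF4H lay below all controls in the results below and EIF4E did not, so they are not a neutral sample of the holders. Each sequence is the gene's own strand from RefSeq (GRCh38.p14), searched from 250 bases before to 50 bases after the annotated start. CACGTG reads the same on both strands.
EIF3K, chr19:38619075-38619100, plus strand: aggaagaagtCACGTGgcagccggaa
EIF4A3, chr17:80147234-80147259, minus strand: agttccctttCACGTGacgaagagtg
EIF4H, chr7:74174147-74174172, plus strand: gccgccgcacCACGTGggctgcagag
EIF4E upstream, chr4:98929343-98929368, minus strand: acccatcggcCACGTGaccagtcctt
EIF4E proximal, chr4:98929190-98929215, minus strand: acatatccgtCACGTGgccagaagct
Of the 44 tested factors, 38 had a promoter in the table and 10 of those (26.3%) held at least 1 E-box, against 10.6% of the 9103 promoters of all tested genes found there. The other holders were EIF1B, EIF2B3, EIF3F, EIF4B, EIF4G1 and EIF5A2. A match describes the letters in this window only. The promoters of EIF2S2, EIF3A, EIF3E, EIF3G, EIF3H and EIF3L were not analysed here.

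The libraries were checked before any factor was read. LIN28B stood at 8.41, 8.17 and 5.84 FPKM in LIN28B KO libraries 1 to 3, against 23.3, 24.3 and 25.5 FPKM in control libraries 1 to 3 (limma, log2 fold change -1.66, SE 0.17, adjusted p = 0.0207). FPKM is the number of sequenced fragments scaled to transcript length and to the library's total. The 8 plasma cell markers, SDC1, CD38 and IRF4 among them, were at 1 FPKM or more in every library. Of 4 T and NK cell markers, CD3D and NKG7 were listed at 0 in every library, CD3E was at 0.697 to 1.27 FPKM and CD2 at 0.0295 to 0.409 FPKM. Depth, as fragment equivalents estimated from the deposited bounds, ran from 4810582 to 5599741 in the LIN28B KO libraries and from 6313751 to 8372795 in controls. LIN28B KO library 3 stood apart. Its log2 ratio to the control mean had a median of -0.35 over all 15803 tested genes and of -0.52 over the 5021 protein-coding genes at 20 FPKM or more in controls, against -0.01 and -0.07 in each of the other LIN28B KO libraries. It also had more genes at 1 FPKM or more (17676, against 15932 and 15922 in the other LIN28B KO libraries) and more of the nuclear RNA MALAT1 (892 FPKM, against 314 and 331). The part of these differences in the factor levels was not tested. Initiation factors are abundant, so each result is given with this library, without it, or after cyclic loess scaling, which removes a library's trend with level.

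No initiation factor passed the test in either direction with all 6 libraries. Genes were tested with limma on log2(FPKM + 0.5), and the threshold was a Benjamini-Hochberg adjusted p under 0.05 over all tested genes. Of the 49 factors, 44 reached 1 FPKM in at least 3 libraries and were tested, and 0 were called. That compares with 15 of all tested genes (0.0949%). At an unadjusted p under 0.05, 4 factors had a negative and 0 a positive difference, against 8.73% and 4.95% of all tested genes. Over the 44 factors the log2 fold change had a median of -0.21, beside -0.13 for all tested genes. Per library, the factors had a median log2 ratio to the control mean of -0.13, -0.07 and -0.51 in LIN28B KO libraries 1 to 3. The 5021 protein-coding genes at 20 FPKM or more in controls were close to this, at -0.07, -0.07 and -0.52. After cyclic loess the median log2 fold changes were 0.01 for the factors and 0.00 for all tested genes. Again 0 factors were called, against 0.702% of all genes. At an unadjusted p under 0.05, 3 factors were positive and 5 negative, against 9.28% and 8.83% of all genes. Without LIN28B KO library 3 the median log2 fold changes were -0.09 and -0.02, with 0 factors called, against 0.417% of all genes. In that fit 1 factor was positive and 15 negative at an unadjusted p under 0.05, against 7.75% and 12.0% of all genes.

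The deposited levels of many factors were nonetheless separated between the groups, with fewer below and others above the controls after cyclic loess. The shares given beside the counts are over tested genes of all levels. Those among genes of similar level to the factors were not computed. In 18 of the 44 factors every LIN28B KO library lay below every control library, which held for 20.1% of all tested genes, and in 0 every LIN28B KO library lay above, against 7.61%. The same 18 factors were below all controls in LIN28B KO libraries 1 and 2 taken alone, against 22.0% of all genes, and EIF3G and EIF4G2 were above, against 17.5%. LIN28B KO library 3 was the lowest of the 6 libraries for 42 of the 44. After cyclic loess 9 factors lay below all controls, against 13.3% of all genes, and 8 lay above them, against 13.7%. The 9 were EIF2S2, EIF3F, EIF3I, EIF3K, EIF3M, EIF4A3, EIF4G3, EIF4H and EIF5A, and the 8 were EIF1, EIF2B5, EIF3B, EIF3D, EIF3G, EIF4A2, EIF4E and EIF4G2.

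**Figure D1:**
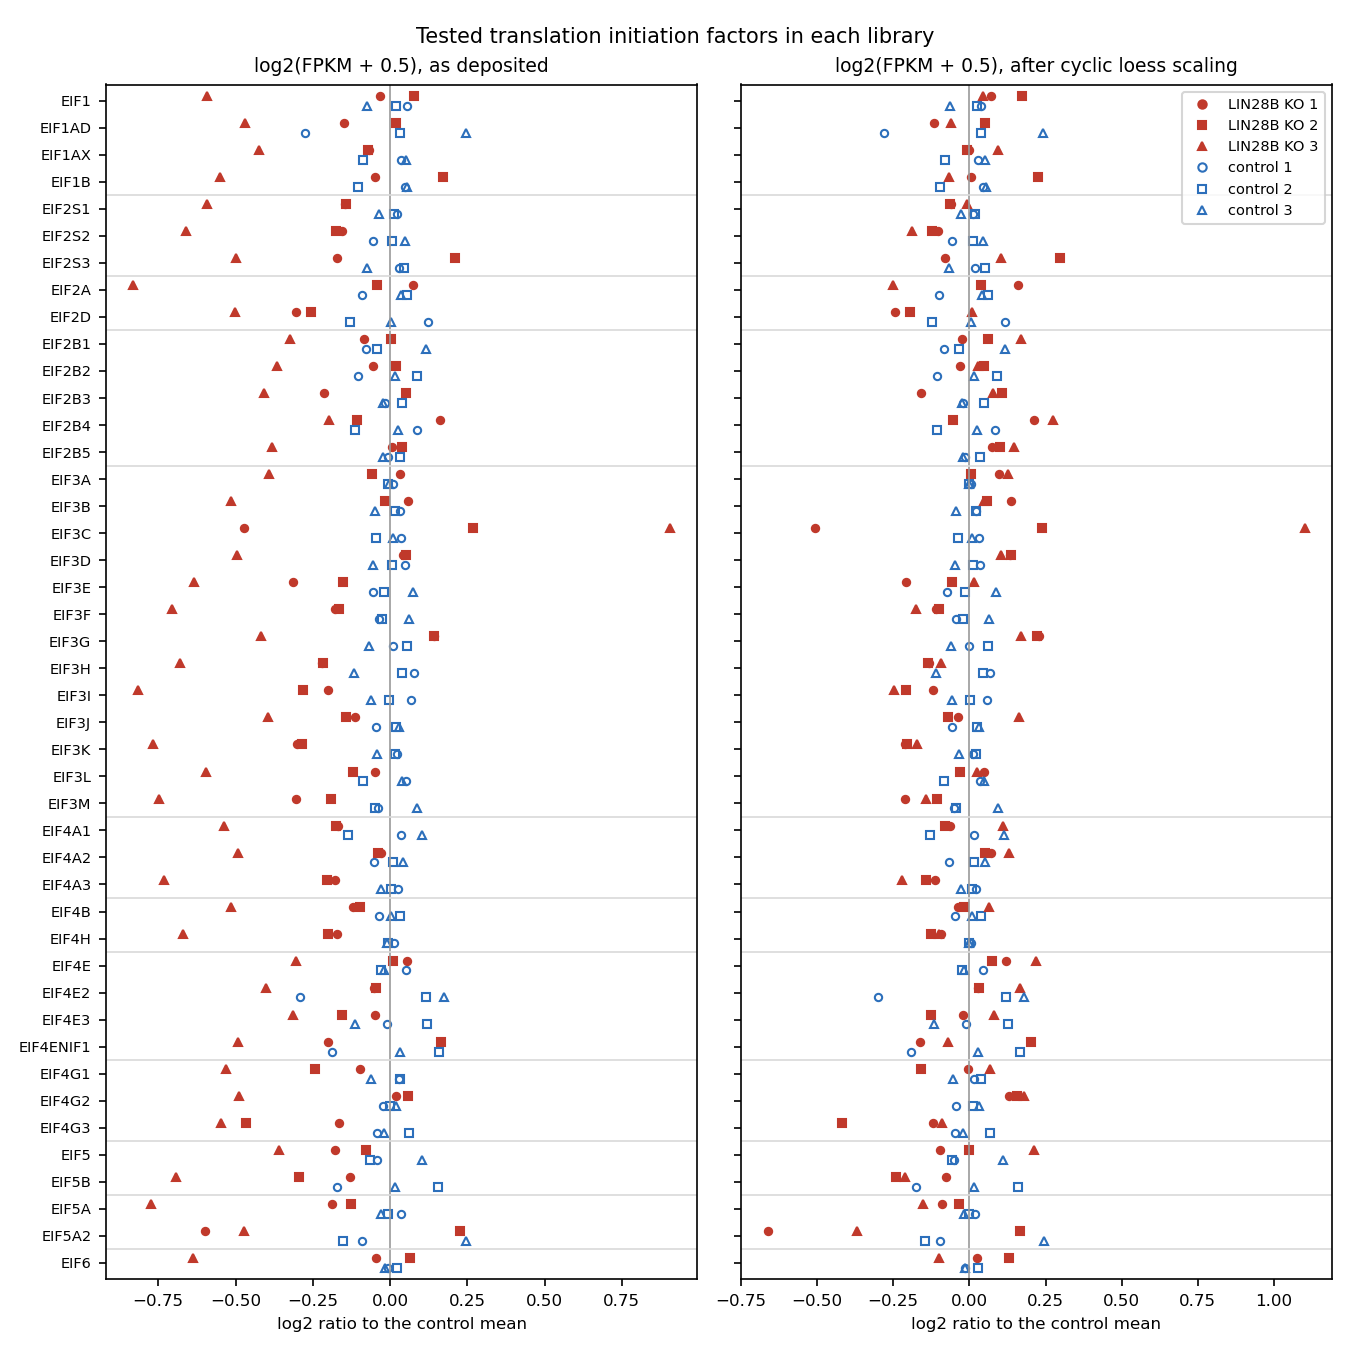
Log2 ratio of each library to the control mean for the 44 tested initiation factors (rows, grouped by complex), on log2(FPKM + 0.5) as deposited (left) and after cyclic loess scaling (right); filled red symbols are LIN28B KO libraries 1 to 3 and open blue symbols control libraries 1 to 3. On the left LIN28B KO library 3 is the lowest point in 42 of 44 rows. On the right 9 factors have every LIN28B KO library below and 8 every LIN28B KO library above all controls, against 13.3% and 13.7% of all tested genes.

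The 5 factors under the filter were EIF1AY, EIF2S3L, EIF3CL, EIF4E1B and EIF5AL1. EIF2S3L, a copy of EIF2S3, ranged from 0.0937 to 0.201 FPKM over the 6 libraries. EIF5AL1, a copy of EIF5A, averaged 0.661 ± 0.210 FPKM in the LIN28B KO libraries and 0.777 ± 0.0872 FPKM in controls (SD, n = 3 each). EIF4E1B, an oocyte form of the cap-binding protein, was listed at 0 in 5 of 6 libraries. EIF1AY lies on chromosome Y, and its level is not given. The deposited bounds of the tested factors, which cover counting error only, lay a median of 6.63% from the value and at most 45.01%, for EIF3C.

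The scanning factors eIF1 and eIF1A showed overlapping groups as deposited. After cyclic loess EIF1 lay above all controls in every LIN28B KO library, as did 13.7% of all tested genes. EIF1 (chr17:39845137-39848920 of GRCh37, the deposited locus of the whole gene, as for all loci from the files), which guards start-codon choice, was at 447, 483 and 303 FPKM in LIN28B KO libraries 1 to 3 and at 475, 463 and 435 FPKM in control libraries 1 to 3. LIN28B KO library 3 was low while the other LIN28B KO libraries fell within or above the control range (log2 fold change -0.18, SE 0.20, adjusted p = 0.655). Its close paralog EIF1B was expressed at 0.0836, 0.0902 and 0.0867 times the level of EIF1 in the LIN28B KO libraries and at 0.0841, 0.0777 and 0.0925 times in controls, with overlapping groups. EIF1AX, the X-linked gene of eIF1A, averaged 55.2 ± 7.58 FPKM in the LIN28B KO libraries and 62.6 ± 3.24 FPKM in controls (SD, n = 3 each). EIF1AD, a protein with an eIF1A-like domain, averaged 15.2 ± 2.62 FPKM in the LIN28B KO libraries and 17.5 ± 3.21 FPKM in controls (SD, n = 3 each).

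In eIF2, the alpha and beta subunits were separated between the groups and the gamma subunit was not. EIF2S1, the alpha subunit that stress kinases phosphorylate, was at 156, 156 and 114 FPKM in the LIN28B KO libraries and at 175, 174 and 169 FPKM in controls. EIF2S2, the beta subunit and a holder of the let-7 seed match, was at 32.6, 32.2 and 22.8 FPKM in the LIN28B KO libraries and at 35.0, 36.5 and 37.6 FPKM in controls. For both, every LIN28B KO library lay below every control, and for EIF2S2 this held after cyclic loess too. EIF2S3 (chrX:24072833-24096088), the gamma subunit that binds GTP and the tRNA, was at 204, 266 and 162 FPKM in the LIN28B KO libraries and at 234, 237 and 218 FPKM in controls, so the groups overlapped (adjusted p = 0.702). In the controls the beta subunit mRNA had the lowest level of the 3, at 36.4 ± 1.30 FPKM against 173 ± 3.67 FPKM for alpha and 230 ± 10.3 FPKM for gamma (SD, n = 3 each).

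The 5 subunits of eIF2B, the exchange factor for eIF2, were close between the groups as deposited. EIF2B5, its catalytic epsilon subunit and the most abundant of them, was at 67.1, 68.6 and 51.2 FPKM in the LIN28B KO libraries and at 66.5, 68.3 and 65.8 FPKM in controls (log2 fold change -0.11, SE 0.15, adjusted p = 0.717). LIN28B KO libraries 1 and 2 lay within or slightly above the control range. After cyclic loess EIF2B5 lay above all controls in every LIN28B KO library, as did 13.7% of all tested genes. The deposited locus of EIF2B5 (chr3:183852826-184402546) takes in that of EIF4G1. Means of the other 4 ran from 13.0 FPKM for EIF2B2 to 40.0 FPKM for EIF2B1 in the LIN28B KO libraries, and from 14.2 to 43.9 FPKM for the same genes in controls. The median log2 fold change of the 5 was -0.134, beside -0.125 for all tested genes. After cyclic loess these medians were 0.068 and 0.005.

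The alternative tRNA carriers eIF2A and eIF2D are separate from eIF2 despite their names. EIF2D (chr1:206744620-206785904), which acts in reinitiation and ribosome recycling, was at 46.1, 47.7 and 40.2 FPKM in the LIN28B KO libraries and at 62.3, 52.2 and 57.3 FPKM in controls. Every LIN28B KO library lay below every control, with a log2 fold change of -0.35 (SE 0.13) that did not pass (adjusted p = 0.348). After cyclic loess LIN28B KO library 3 was at a log2 ratio of 0.0083 to the control mean and the groups overlapped. EIF2A was at 177, 163 and 93.9 FPKM in the LIN28B KO libraries and at 158, 174 and 172 FPKM in controls, low in LIN28B KO library 3 alone.

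eIF3, the largest initiation factor, is a scaffold of subunits on the small ribosomal subunit, and its mRNAs differed widely in level. In the controls EIF3E was highest at 677 ± 31.7 FPKM, followed by EIF3L at 336 ± 17.7 FPKM and EIF3M at 257 ± 13.5 FPKM (SD, n = 3 each). EIF3D and EIF3K came next at 215 ± 7.61 and 213 ± 5.23 FPKM and did not differ beyond their spread, and neither did EIF3B at 116 ± 3.37 FPKM and EIF3J at 113 ± 3.19 FPKM. EIF3F and EIF3A were at 78.9 ± 3.02 and 58.7 ± 0.385 FPKM. EIF3C stood far below at 3.82 ± 0.124 FPKM, although its protein is a core subunit. EIF3C (chr16:28699879-28747051) has a near-identical copy, EIF3CL (chr16:28390900-28415200), which was listed at 0 or near it in every library. Reads shared by such copies can be dropped or split in counting, so both values are uncertain.

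**Figure D2:**
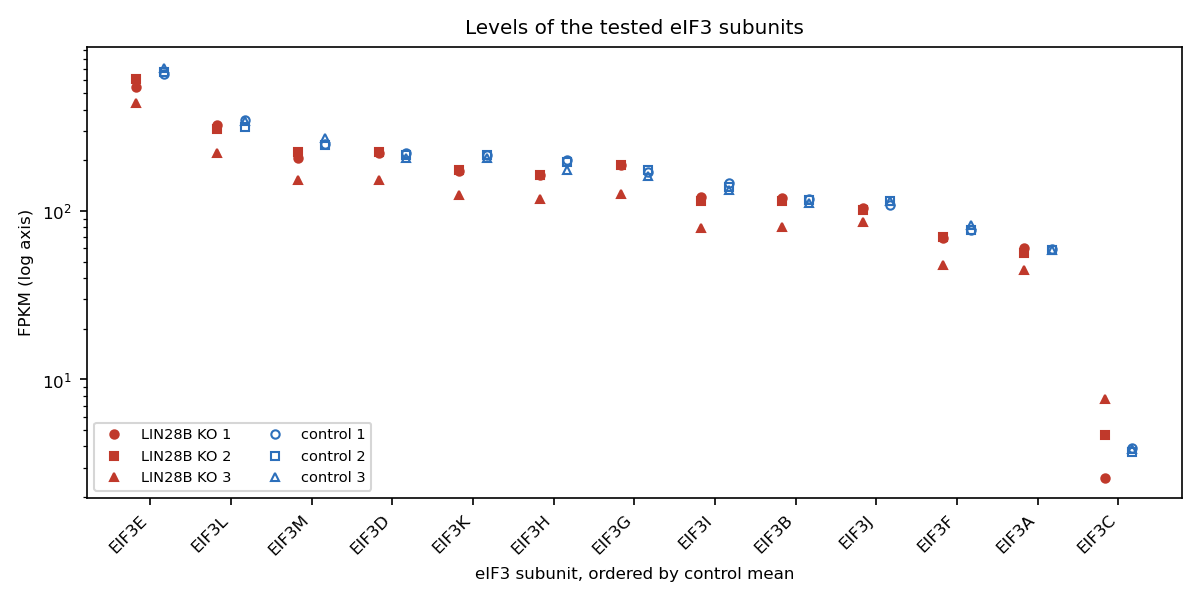
FPKM (log axis) of the 13 tested eIF3 subunits in each library, ordered by control mean; filled red symbols are LIN28B KO libraries, open blue symbols control libraries. EIF3E is highest at 677 FPKM in control mean and EIF3C lowest at 3.82 FPKM, and LIN28B KO library 3 is lowest for every subunit except EIF3C.

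Of the 13 tested eIF3 subunits, 7 were below all controls in every LIN28B KO library and 0 above, against 20.1% and 7.61% of all tested genes. After cyclic loess 4 were below and 3 above, against 13.3% and 13.7%. EIF3K (chr19:39109735-39127595), a small subunit at the edge of the complex and a holder of both the seed match and an E-box, was at 173, 175 and 125 FPKM in the LIN28B KO libraries and at 217, 215 and 207 FPKM in controls. The groups were clearly apart with or without LIN28B KO library 3. The log2 fold change with all 6 libraries was -0.45 (SE 0.16, adjusted p = 0.339), and -0.20 (SE 0.04, adjusted p = 0.0920) after cyclic loess. It was the sole factor to fall past the threshold in any fit tried. That was the fit without LIN28B KO library 3 on 11308 protein-coding genes (log2 fold change -0.29, SE 0.05, adjusted p = 0.0329). In that fit 1 of the 44 factors was called lower, against 3.02% of genes, so the call was no more frequent among the factors. On all genes without that library EIF3K missed the threshold (adjusted p = 0.0627), as it did on protein-coding genes with cyclic loess (adjusted p = 0.0816). Over all alternatives its adjusted p ran from 0.0329 to 0.680.

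EIF3M and EIF3I followed the same pattern but passed the threshold in no fit. EIF3M (chr11:32605344-32627808), a PCI-domain subunit, was at 208, 225 and 153 FPKM in the LIN28B KO libraries and at 250.3, 248 and 273 FPKM in controls (log2 fold change -0.41, SE 0.17, adjusted p = 0.364). EIF3I, a WD-repeat subunit, was at 122, 115 and 79.2 FPKM in the LIN28B KO libraries and at 146, 139 and 134 FPKM in controls (log2 fold change -0.43, SE 0.18, adjusted p = 0.365). For both the groups stayed apart after cyclic loess. EIF3E (chr8:109213445-109447562), the subunit first found as an integration site of mouse mammary tumour virus, was at 544, 609 and 436 FPKM in the LIN28B KO libraries and at 651, 667 and 712 FPKM in controls (log2 fold change -0.37, SE 0.17, adjusted p = 0.375). Its groups overlapped after cyclic loess. EIF3F and EIF3H, the MPN-domain subunits, and EIF3J, the loosely bound subunit, were also below all controls as deposited, and of these EIF3F alone stayed so after cyclic loess.

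EIF3G ran the other way. This RNA-binding subunit (chr19:10225693-10230596), singled out after its values were seen, was at 187, 187 and 126 FPKM in the LIN28B KO libraries and at 170, 176 and 161 FPKM in controls. LIN28B KO libraries 1 and 2 lay above all controls and LIN28B KO library 3 below. The log2 fold change with all libraries was -0.05 (SE 0.18, adjusted p = 0.911), and it was 0.14 (SE 0.05, adjusted p = 0.230) without LIN28B KO library 3 and 0.21 (SE 0.05, adjusted p = 0.125) after cyclic loess. EIF3D, which can bind the cap of selected mRNAs, was at 221, 223 and 152 FPKM in the LIN28B KO libraries and at 222, 216 and 207 FPKM in controls. EIF3B was at 120, 114 and 80.8 FPKM in the LIN28B KO libraries and at 118, 117 and 112 FPKM in controls.

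Dividing each subunit by the eIF3 sum of its own library takes out a shift common to all subunits, but not one that varies with level. The 13 subunits summed to 2298, 2353 and 1679 FPKM in the LIN28B KO libraries and to 2573, 2544 and 2586 FPKM in controls. EIF3K made up 7.52%, 7.42% and 7.44% of that sum in the LIN28B KO libraries and 8.42%, 8.47% and 8.005% in controls. EIF3M made up 9.04%, 9.56% and 9.11% in the LIN28B KO libraries and 9.73%, 9.77% and 10.5% in controls. EIF3G made up 8.12%, 7.93% and 7.52% in the LIN28B KO libraries and 6.62%, 6.91% and 6.24% in controls. The mean shares of EIF3K, EIF3M and EIF3G in LIN28B KO libraries differed from their control value by -10.1%, -7.76% and 19.2% of it, and in each case the groups did not overlap. EIF3A, EIF3B and EIF3D also had higher shares in every LIN28B KO library than in any control, by 11.8%, 10.3% and 12.1%. The deposited levels of EIF3A, EIF3B, EIF3D and EIF3G overlapped between the groups. The shares of the other 7 subunits overlapped. Shares of 1 sum depend on each other, and EIF3E alone makes up 26.4% of it in the controls. No test was run on the shares, and no rate of such separation was computed for other genes.

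**Figure D3:**
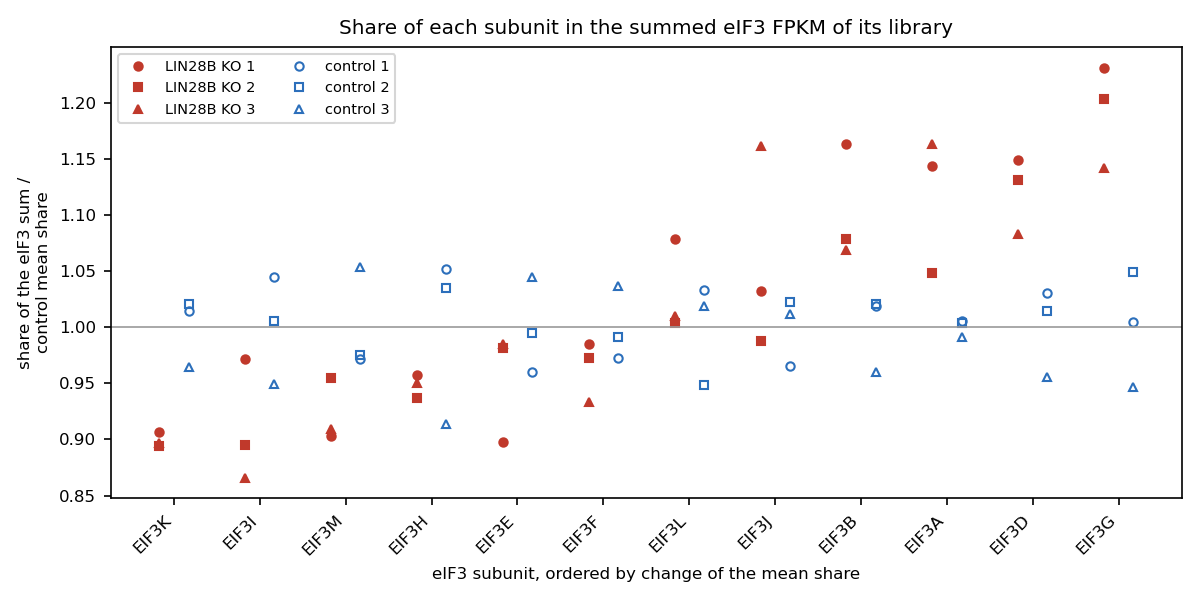
Share of each eIF3 subunit in the summed eIF3 FPKM of its library, divided by the mean control share (1 is the control mean); filled red symbols are LIN28B KO libraries and open blue symbols control libraries, and EIF3C is left out. EIF3K and EIF3M lie below all controls in every LIN28B KO library, while EIF3A, EIF3B, EIF3D and EIF3G lie above.

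In the fit of all 6 libraries as deposited, EIF3C alone among the tested factors had a positive log2 fold change, and it rested on 1 library. It was at 2.62, 4.71 and 7.61 FPKM in the LIN28B KO libraries and at 3.93, 3.69 and 3.85 FPKM in controls (log2 fold change 0.23, SE 0.33, adjusted p = 0.730). Without LIN28B KO library 3 the log2 fold change was -0.10. The LIN28B KO libraries spread on both sides of the tightly grouped controls.

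Among the RNA helicases of the eIF4A family, EIF4A1 led. EIF4A1 (chr17:7476024-7482323), which unwinds mRNA leaders, was at 550.3, 548 and 426 FPKM in the LIN28B KO libraries and at 634, 562 and 664 FPKM in controls (log2 fold change -0.29, SE 0.16, adjusted p = 0.427). Every LIN28B KO library lay below the lowest control, by little for 2 of them, and the groups overlapped after cyclic loess. The files also list a readthrough gene, SENP3-EIF4A1, and many EIF4A1 pseudogenes, with which reads may be shared. EIF4A2, its paralog, was expressed at 0.577, 0.576 and 0.540 times the level of EIF4A1 in the LIN28B KO libraries and at 0.494, 0.580 and 0.502 times in controls, so the ratio overlapped. EIF4A3, which acts in the exon junction complex and not in initiation, was at 51.4, 50.5 and 34.9 FPKM in the LIN28B KO libraries and at 59.2, 58.3 and 57.0 FPKM in controls, apart on both scales.

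The helicase cofactors EIF4B and EIF4H were both below all controls. EIF4B (chr12:53399942-53435993) was at 145, 148 and 110 FPKM in the LIN28B KO libraries and at 154, 162 and 158 FPKM in controls (log2 fold change -0.24, SE 0.15, adjusted p = 0.463). After cyclic loess its log2 fold change was 0.0034. EIF4H was at 125, 123 and 88.5 FPKM in the LIN28B KO libraries and at 143, 141 and 140 FPKM in controls, and its groups remained apart after cyclic loess.

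As deposited, the groups overlapped for each of the 4 tested cap-binding proteins and their partners, while after cyclic loess EIF4E lay above all controls in every LIN28B KO library. EIF4E, the cap-binding subunit whose promoter carries a pair of E-boxes, was at 63.2, 61.2 and 49.2 FPKM in the LIN28B KO libraries and at 62.9, 59.5 and 59.9 FPKM in controls. LIN28B KO library 1 was thus just above the controls, library 2 within their range and library 3 below. MYC itself was at 171, 174 and 112 FPKM in the LIN28B KO libraries and at 215, 211 and 224 FPKM in controls (log2 fold change -0.54, SE 0.19, adjusted p = 0.333). For MYC this was -0.33 (SE 0.05, adjusted p = 0.0622) without LIN28B KO library 3 and -0.28 (SE 0.05, adjusted p = 0.0808) after cyclic loess. EIF4E2 (chr2:233414762-233448354), a relative that binds the cap and represses translation, was at 129, 129 and 101 FPKM in the LIN28B KO libraries and at 109, 145 and 151 FPKM in controls, with a control spread as wide as the difference (adjusted p = 0.653). EIF4E3, a holder of the seed match, averaged 13.1 ± 1.25 FPKM in the LIN28B KO libraries and 14.8 ± 1.24 FPKM in controls, and EIF4ENIF1, the eIF4E transporter, 17.6 ± 4.14 FPKM in the LIN28B KO libraries and 19.7 ± 2.41 FPKM in controls (SD, n = 3 each).

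None of the eIF4G scaffolds passed the test. EIF4G2 (chr11:10818597-10830657), also called DAP5, lacks the eIF4E-binding site of its relatives and was the most abundant of all 49 factors. It was at 1003, 1030.1 and 704 FPKM in the LIN28B KO libraries and at 974, 989 and 1002 FPKM in controls (log2 fold change -0.14, SE 0.19, adjusted p = 0.725). LIN28B KO libraries 1 and 2 lay just above all controls, by less than the width of the deposited bounds. After cyclic loess every LIN28B KO library lay above all controls, with a log2 fold change of 0.16 (SE 0.04) that did not pass (adjusted p = 0.117). EIF4G1, the main scaffold, was at 202, 182 and 149 FPKM in the LIN28B KO libraries and at 219.8, 220.5 and 206 FPKM in controls. EIF4G3 (chr1:21132963-21503377) was at 28.1, 22.7 and 21.5 FPKM in the LIN28B KO libraries and at 30.7, 33.0 and 31.2 FPKM in controls. It had the smallest unadjusted p of all factors with 6 libraries (0.0273; log2 fold change -0.39, SE 0.14, adjusted p = 0.335), and its groups did not overlap on either scale. The ratio of EIF4G2 to EIF4G1 was 4.97, 5.66 and 4.72 in the LIN28B KO libraries and 4.43, 4.49 and 4.86 in controls, and that of EIF4G3 to EIF4G1 was 0.139, 0.125 and 0.144 in the LIN28B KO libraries and 0.139, 0.150 and 0.151 in controls. Both ratios overlapped.

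At subunit joining, EIF5 (chr14:103799881-103811362), which triggers GTP hydrolysis on eIF2, was at 118, 127 and 104 FPKM in the LIN28B KO libraries and at 130.3, 128 and 144 FPKM in controls (log2 fold change -0.20, SE 0.13, adjusted p = 0.476). EIF5B, the joining GTPase, averaged 31.8 ± 6.20 FPKM in the LIN28B KO libraries and 41.0 ± 4.66 FPKM in controls (SD, n = 3 each), with overlapping groups. EIF6 (chr20:33866714-33872788), which keeps free large subunits from joining too early, was at 78.6, 84.8 and 51.9 FPKM in the LIN28B KO libraries and at 80.8, 82.4 and 80.3 FPKM in controls (adjusted p = 0.605). LIN28B KO library 3 was far below the controls, library 1 just below and library 2 above them.

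eIF5A, now known mainly for its role in elongation, was below all controls. EIF5A (chr17:7210318-7215774), the only protein family known to carry the modified lysine hypusine, was at 324, 338 and 215 FPKM in the LIN28B KO libraries and at 378, 367 and 362 FPKM in controls (log2 fold change -0.36, SE 0.20, adjusted p = 0.416). The separation was kept after cyclic loess, at a log2 fold change of only -0.09 (SE 0.04, adjusted p = 0.325). Its rarer paralog EIF5A2 averaged 2.57 ± 1.01 FPKM in the LIN28B KO libraries and 3.14 ± 0.558 FPKM in controls (SD, n = 3 each). The enzymes that make hypusine were not past the threshold either. DHPS, the first, was at 48.3, 56.5 and 42.6 FPKM in the LIN28B KO libraries and at 67.6, 58.1 and 62.6 FPKM in controls (adjusted p = 0.363). It lay below all controls in each LIN28B KO library, as did 20.1% of all tested genes. DOHH, the other enzyme, was at 11.4, 14.2 and 7.56 FPKM in the LIN28B KO libraries and at 13.8, 12.7 and 14.8 FPKM in controls (adjusted p = 0.475), with overlapping groups.

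**Figure D4:**
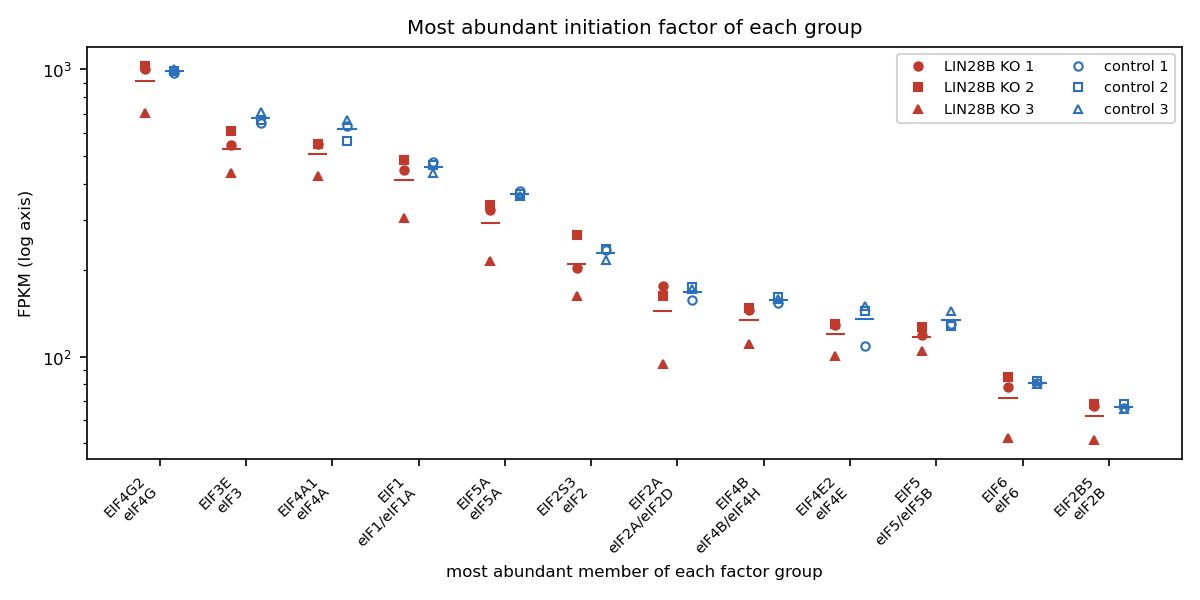
FPKM (log axis) of the most abundant tested member of each factor group in each library, ordered by control mean; filled red symbols are LIN28B KO libraries, open blue symbols control libraries and short lines group means. EIF4G2 is highest at 912 FPKM in LIN28B KO mean and 989 FPKM in control mean, and LIN28B KO library 3 is the lowest point of every gene.

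The factors with an E-box and those without were compared by count only. Of the 10 with an E-box, 6 lay below all controls in every LIN28B KO library (EIF3F, EIF3K, EIF4A3, EIF4B, EIF4G1 and EIF4H), with a median log2 fold change of -0.29 over the 10. Of the 28 without one, 9 did, with a median of -0.19, and of all tested genes 20.1% did. After cyclic loess EIF3F, EIF3K, EIF4A3 and EIF4H were below among the holders, and EIF3I, EIF3M, EIF4G3 and EIF5A among those without. The share of all tested genes below was then 13.3%. EIF4E was above all controls among the holders, and EIF1, EIF2B5, EIF3B, EIF3D, EIF4A2 and EIF4G2 among those without, against 13.7%. Of the 6 factors whose promoters were not analysed, 3 lay below all controls as deposited. After cyclic loess EIF2S2 was below and EIF3G above among them. Among the 4 holders of the seed match, EIF3K and EIF2S2 lay below all controls as deposited, while EIF4E3 and EIF4G2 overlapped. After cyclic loess EIF4G2 lay above all controls. These are small numbers of genes that share libraries, and no test was run.

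No other gene of translation on a list of 42 passed the test with 6 libraries. Of these 42 listed genes, 40 were tested and 0 were called in either direction with 6 libraries, against 0.0949% of all tested genes. At an unadjusted p under 0.05, 7 were negative and 0 positive, against 8.73% and 4.95% of all tested genes. In the fit that called EIF3K lower, 4 of the 40 were called lower too, and with cyclic loess added 1 was, against 3.02% and 1.17% of all genes. Their log2 fold changes had a median of -0.23 with all libraries, -0.03 after cyclic loess and -0.13 without LIN28B KO library 3. EIF4EBP1, which blocks eIF4E when mTOR is inactive, was at 43.4, 48.8 and 32.0 FPKM in the LIN28B KO libraries and at 60.6, 59.7 and 54.3 FPKM in controls (log2 fold change -0.51, adjusted p = 0.321). EEF1E1, a scaffold of the tRNA synthetase complex, was at 34.0, 32.3 and 24.0 FPKM in the LIN28B KO libraries and at 46.5, 44.2 and 50.1 FPKM in controls (log2 fold change -0.65, adjusted p = 0.264). In both, every LIN28B KO library lay below every control, which held for 20.1% of all tested genes. After cyclic loess 18 of the 40 had a positive and 22 a negative log2 fold change. Among the positive were PAIP2 (0.32, SE 0.08, adjusted p = 0.127) and PDCD4 (0.20, SE 0.07, adjusted p = 0.240). Among the negative were EEF1E1 (-0.45, SE 0.07, adjusted p = 0.0576) and EIF4EBP1 (-0.30, SE 0.08, adjusted p = 0.137). The elongation factor EEF2 was at 2279, 2132 and 1893 FPKM in the LIN28B KO libraries and at 2329, 2236 and 2179 FPKM in controls (log2 fold change -0.10, adjusted p = 0.762). The 7 genes of eIF2 phosphorylation control, the EIF2AK kinases and the PPP1R15 phosphatase subunits among them, had a median of -0.17, which was 0.03 after cyclic loess.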

How the data were processed

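RNA sequencing of 6 MOLP-8 libraries, 3 LIN28B KO and 3 control, was read from 1 deposited table per library. Each deposited table gives FPKM per gene, with bounds and a status, per the file headers. TopHat2, HTSeq and cutadapt are named with build GRCh37 in the submitters' processing notes; the sources used here state neither their roles nor strand, so reads of a gene and of an antisense partner cannot be told apart. Rows were joined by gene identifier and summed where a gene had several; 25 genes with a failed estimate, none of them an initiation factor, were left out. Log2(FPKM + 0.5) was fitted in R 4.3.3 with limma 3.58.1, using a trended variance and no covariates, on 15803 genes at 1 FPKM or more in at least 3 libraries. Fold changes on this scale understate those of low genes. The fit was tested on simulated data. Depth limits the precision of low factors such as EIF3C, and bounds cover counting error only. GENCODE 29 gave biotypes and 3′ UTR sequence, without coordinates.

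Values in every library are given for the 4 factors with the smallest p among the negative differences and for EIF3C, the only positive one. They are also given for any factor called in a 6- or 5-library fit, the most abundant factor of each group, and others added afterwards. The factors, lists and rules were chosen with earlier results of these data known. The list of 42 other translation genes was written from general knowledge; EEF1B2 had a failed estimate and GSPT2 was under the filter. Marker lists for plasma, T and NK, myeloid, erythroid and fibroblast cells were checked; the T and NK, myeloid, erythroid and fibroblast lists summed to at most 1.44, 1.16, 0.953 and 5.03 FPKM in any library.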

Additional observations from a re-analysis of the deposited data

How the results depend on the processing

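The factors were fitted under 18 alternatives. No factor was called higher in any of them. In 1 of them, on protein-coding genes without LIN28B KO library 3, EIF3K alone of 44 factors was called lower, against 3.02% of genes. Leaving out each library in turn gave 0 called factors in both directions and median log2 fold changes from -0.32 to -0.09, against -0.21 with all libraries. The median was 0.0061 after cyclic loess. After cyclic loess 9 factors lay below and 8 above all controls, against 13.3% and 13.7% of all tested genes. Without LIN28B KO library 3 the counts were 18 and 2, against 22.0% and 17.5%. These counts were chosen after seeing the data, as was cyclic loess on protein-coding genes without that library.

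Among the 18 factors followed singly, signs turned in the following cases, none of them called, and the cause was not tested beyond the part of LIN28B KO library 3 shown by leaving it out. Cyclic loess gave log2 fold changes of 0.095 for EIF1, 0.11 for EIF2S3, 0.11 for EIF2B5, 0.0034 for EIF4B, 0.076 for EIF4E2, 0.16 for EIF4G2, 0.038 for EIF5, 0.018 for EIF6 and 0.21 for EIF3G. Quantile normalization gave 0.037 for EIF2S3, 0.053 for EIF2B5, 0.016 for EIF4E2, 0.15 for EIF4G2 and 0.17 for EIF3G. Array weights gave -0.093 for EIF3C, 0.0043 for EIF2B5, 0.019 for EIF4G2 and 0.12 for EIF3G. Without LIN28B KO library 3, on all or on protein-coding genes, the values were -0.10 for EIF3C, 0.023 for EIF1, 0.020 for EIF2S3, 0.017 for EIF2A, 0.022 for EIF2B5, 0.040 for EIF4G2, 0.0089 for EIF6 and 0.14 for EIF3G. Cyclic loess without that library gave -0.15 for EIF3C, 0.12 for EIF1, 0.11 for EIF2S3, 0.10 for EIF2A, 0.090 for EIF2B5, 0.032 for EIF4E2, 0.15 for EIF4G2, 0.079 for EIF6 and 0.23 for EIF3G. On protein-coding genes it gave -0.12 for EIF3C, 0.13 for EIF1, 0.12 for EIF2S3, 0.10 for EIF2A, 0.094 for EIF2B5, 0.034 for EIF4E2, 0.16 for EIF4G2, 0.083 for EIF6 and 0.23 for EIF3G. Leave-one-out ranges crossed 0 for EIF3C (-0.10 to 0.59), EIF1 (-0.31 to 0.023), EIF2S3 (-0.34 to 0.020), EIF2A (-0.44 to 0.017), EIF2B5 (-0.19 to 0.022), EIF4G2 (-0.23 to 0.040), EIF6 (-0.34 to 0.0089) and EIF3G (-0.14 to 0.14). EIF4G3, EIF3K, EIF2D, EIF3M, EIF3E, EIF4A1 and EIF5A kept a negative sign under every alternative.

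Replicate numbers are shared by the groups but did not pair the libraries (correlations of deviations of -0.021, 0.044 and -0.033). Counts of calls over all genes moved more than 1.5 times between fits: 10 higher and 5 lower with all libraries, against 57 and 54 after cyclic loess, 67 and 103 with array weights, 15 and 13 after quantile normalization, 23 and 41 without LIN28B KO library 3, and 122 and 341 on protein-coding genes without it. A fit with the replicate block called 0 factors in either direction, with a median of -0.21.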
